A study of Mus musculus with 12 samples.

Results

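The 10 genes described here encode ligands and receptors of the TGF-beta and PDGF pathways: Tgfb1, Tgfb2, Tgfb3, Tgfbr1, Tgfbr2, Pdgfa, Pdgfb, Pdgfc, Pdgfra and Pdgfrb. They were taken by gene symbol from the deposited table of mouse liver RNA-seq, are 10 of its 47069 genes, and each symbol is listed there 1 time. All 10 passed a filter of a mean of at least 0.1 FPKM, the number of fragments scaled to transcript length and library size, over the 12 libraries, as did 17386 genes in all.

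The study asks how liver cells fare without the mitotic kinase CDK1, and sequenced polyadenylated RNA of mice at postnatal day 14 (P14). Of its 4 groups, 2 are isolated hepatocytes and 2 are whole liver, each from WT mice or from Cdk1 Liv-/- mice, with 3 libraries per group. Cdk1 Liv-/- mice carry floxed Cdk1 alleles (Cdk1 flox/flox) and Cre under the Albumin promoter. Cre therefore acts in cells that express Albumin, while liver cells in which Albumin was never expressed keep Cdk1. The study reports that deletion had begun in hepatoblasts of embryos.

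TGF-beta ligands are secreted in a latent form, and once released they bind the type II receptor TGFBR2, which recruits and phosphorylates the type I receptor TGFBR1, and SMAD proteins carry the signal to the nucleus. PDGF ligands are dimers that pair the tyrosine kinase receptors PDGFRA and PDGFRB. In the liver both pathways are known for acting on hepatic stellate cells, which express PDGF receptors and lay down matrix in fibrosis, and TGF-beta also restrains hepatocyte proliferation.

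Cdk1, the gene targeted in the mutants, was at 27.9, 20.4 and 28.2 FPKM in hepatocytes of WT replicates 1 to 3 and at 9.68, 11.8 and 6.87 FPKM in those of Cdk1 Liv-/- replicates 1 to 3. In whole liver it was at 25.3, 22.7 and 21.5 FPKM in WT and at 11.7, 12.1 and 14.2 FPKM in Cdk1 Liv-/- libraries. The genotype labels of all 12 libraries thus match the level of Cdk1, with no overlap between genotypes in either compartment. The methods of the study state that male mice were used, but Cdk1 Liv-/- whole liver replicate 3 had 158 FPKM of Xist and 0 FPKM summed over Uty, Kdm5d, Ddx3y and Eif2s3y, which are Y-linked. No other library had more than 0.14 FPKM of Xist. Those of the 10 genes that passed between genotypes in whole liver are therefore also given without Cdk1 Liv-/- whole liver replicate 3. For other genes, whole liver fits without that library are not given.

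A second library stands apart for what it holds besides hepatocyte RNA. In WT hepatocyte replicate 3 the level was the highest of the 3 WT hepatocyte libraries for 9 of 10 stellate cell markers, 9 of 9 sinusoidal endothelial markers and 10 of 10 Kupffer cell markers. The 10 stellate cell markers, of which Dcn is the most abundant, summed to 215, 132 and 438 FPKM in WT hepatocytes, 126, 103 and 91.2 FPKM in Cdk1 Liv-/- hepatocytes, 390, 391 and 421 FPKM in WT whole liver and 544, 509 and 574 FPKM in Cdk1 Liv-/- whole liver. The 9 endothelial markers, led by Clec4g, summed in the same order to 128, 87.9 and 241, to 57.3, 36.5 and 39.3, to 113, 135 and 161, and to 136, 169 and 135 FPKM. For the 10 Kupffer cell markers, led by Cd5l, the sums were 365, 198 and 668, then 222, 164 and 143, then 522, 577 and 584, and then 667, 902 and 696 FPKM. Markers of these cells were thus measured in all isolated hepatocyte libraries, at lower sums in the 3 Cdk1 Liv-/- libraries than in WT replicates 1 and 3. None of these markers was listed at 0 in any library. The 8 hepatocyte markers, led by Alb, summed to means of 84935 FPKM in WT hepatocytes, 56307 FPKM in Cdk1 Liv-/- hepatocytes, 83425 FPKM in WT whole liver and 62870 FPKM in Cdk1 Liv-/- whole liver. In such bulk samples, a change in the number of cells of a type cannot be told apart from a change in RNA per cell.

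**Figure D1:**
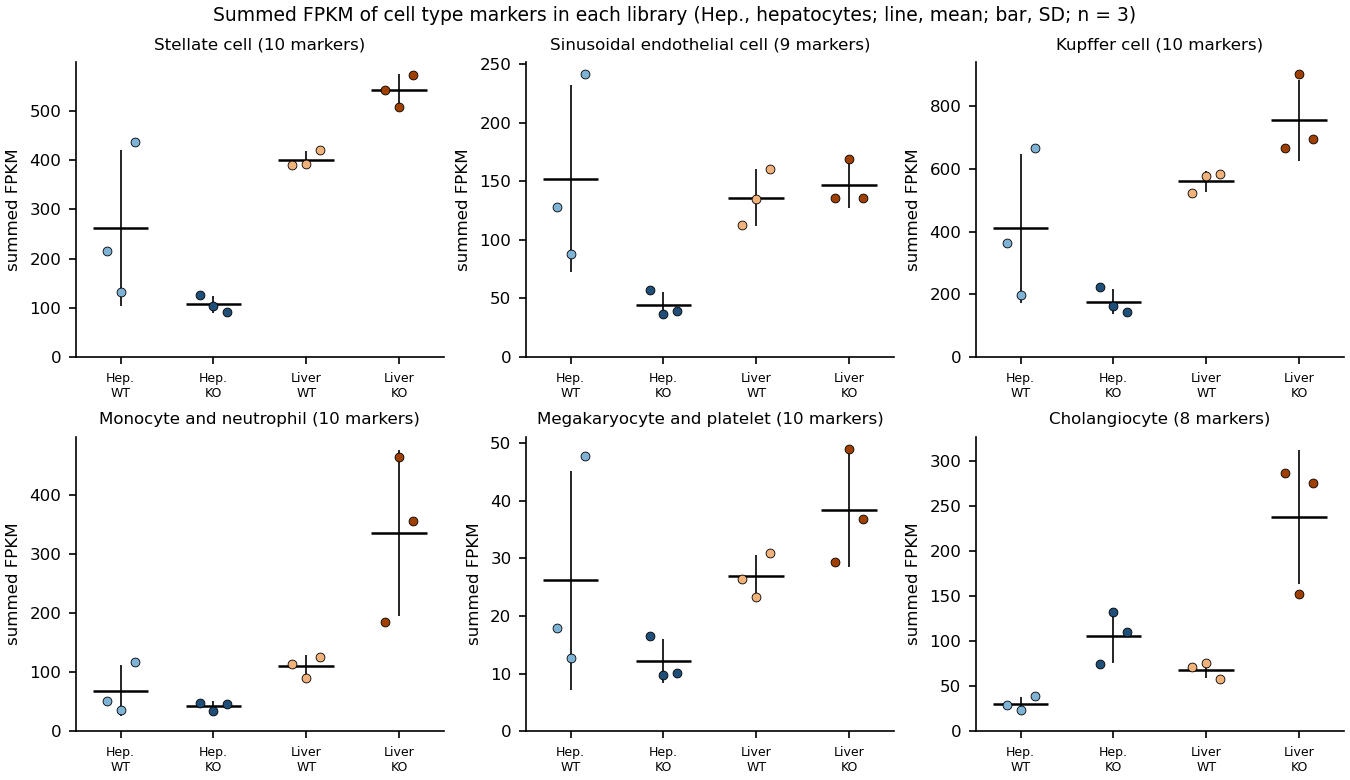
Summed FPKM of the markers of 6 cell types (vertical axes) in each of the 12 libraries, by group; lines are means and bars SD of 3 libraries. In WT hepatocyte replicate 3 the stellate sum was 438 FPKM, against 215 and 132 FPKM in the other WT hepatocyte libraries.

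The promoter sequences of the 3 members named next are shown because Tgfb1, the most abundant TGF-beta ligand, and Tgfb2 and Pdgfc, both higher in Cdk1 Liv-/- hepatocytes, differ in the motifs just before their start sites. The RefSeq table (build GRCm38.p6) matched 7 of the 10 genes, with 9 windows of 250 bases before a start site, and Tgfb3, Pdgfb and Pdgfrb were not matched. The search covered both strands for 7 motifs, none of which contains another: the TATA box (TATAAA), an E-box (CACGTG), the CCAAT box, the GC box (GGGCGG), the AP-1 site, the cyclic AMP response element and a SMAD palindrome, whose letters are given with their counts. Capitals mark the matches, and each sequence runs 5′ to 3′ on the strand of its gene.
Tgfb2, chr1:186705990-186706239, minus strand: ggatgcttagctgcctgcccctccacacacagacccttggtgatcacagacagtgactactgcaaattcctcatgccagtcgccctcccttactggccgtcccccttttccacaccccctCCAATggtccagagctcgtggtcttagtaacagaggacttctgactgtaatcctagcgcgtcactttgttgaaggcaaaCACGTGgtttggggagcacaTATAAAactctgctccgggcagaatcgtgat
Tgfb1, chr7:25686752-25687001, plus strand: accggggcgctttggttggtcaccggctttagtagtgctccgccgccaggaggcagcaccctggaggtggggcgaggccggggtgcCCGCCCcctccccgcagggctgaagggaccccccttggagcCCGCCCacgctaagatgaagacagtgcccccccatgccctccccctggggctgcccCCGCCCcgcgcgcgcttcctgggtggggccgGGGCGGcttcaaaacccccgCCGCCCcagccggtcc
Pdgfc, chr3:81036166-81036415, plus strand: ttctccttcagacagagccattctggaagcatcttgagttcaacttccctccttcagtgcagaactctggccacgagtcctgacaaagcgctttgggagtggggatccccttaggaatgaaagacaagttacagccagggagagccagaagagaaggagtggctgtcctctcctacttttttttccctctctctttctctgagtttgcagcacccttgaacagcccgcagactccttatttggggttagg

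The Tgfb2 window holds TATAAA with its first base at position -31 from the start site, CACGTG at -51 and CCAAT at -130. It is the only one of the 9 windows with TATAAA or CACGTG, which occur in 12.4% and 6.02% of the 32851 windows of that length in the table. The Tgfb1 window holds GGGCGG or its complement at 5 places and no TATAAA, and its GC content is 75.2%, against a median of 52.4% over all windows. GC boxes occur in 4 of the 9 windows, those of Tgfb1, 1 of Tgfbr1 and both of Pdgfa, and in 32.7% of all windows. CCAAT, present in 33.8% of all windows, occurs in those of Tgfb2 and Tgfbr2 and in 1 of the 2 of Tgfbr1. The Pdgfc window, at 50.8% GC, holds none of the 7 motifs, and neither do the Pdgfra window and the other Tgfbr1 window. None of the 9 windows holds the AP-1 site (TGACTCA), which occurs in 4.46% of all windows. None holds the cyclic AMP response element (TGACGTCA), found in 1.55%, or the SMAD palindrome (GTCTAGAC), found in 0.167%. The genes lie on 9 chromosomes, with only Pdgfa and Pdgfra sharing one, chromosome 5.

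Among the TGF-beta ligands, Tgfb1 (ENSMUSG00000002603, chr7:25687002-25705077 in build GRCm38, as are the positions of the other genes) encodes the form made by many blood and stromal cells. It was at 5.28, 3.96 and 14.5 FPKM in WT hepatocytes, 3.21, 1.81 and 2.06 FPKM in Cdk1 Liv-/- hepatocytes, 7.57, 8.51 and 10.8 FPKM in WT whole liver and 9.03, 14.9 and 10.1 FPKM in Cdk1 Liv-/- whole liver. In hepatocytes the 3 Cdk1 Liv-/- libraries all lay below the 3 WT libraries, of which replicate 3 was far above the rest, while the whole liver groups overlapped. Its log2 fold change in hepatocytes was -1.38 (95% confidence interval -2.52 to -0.24) and did not pass the test, with an adjusted p of 0.118. Over 17 alternatives the adjusted p ran from 0.026, in 1 fit of all 12 libraries, to 0.258, and it passed in 4 of them. Without WT hepatocyte replicate 3 the log2 fold change was -0.86. In whole liver it was 0.31 (-0.22 to 0.84, adjusted p 0.304), and after scaling by median-ratio size factors it was 0.10. Without 1 whole liver library at a time it was 0.10 to 0.45, and Tgfb1 did not pass (adjusted p 0.183 to 0.659).

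Here and below, fold changes are of Cdk1 Liv-/- over WT on the scale of log2(FPKM + 0.5), where the added 0.5 understates the change of genes with low FPKM. The test is limma's, two-sided, and a gene passed it at an adjusted p of at most 0.1, with Benjamini-Hochberg adjustment over the 17386 genes. In whole liver the median log2 fold change of all genes tested was 0.18, and median-ratio size factors brought it to 0.01, a shift of -0.17. Such factors are built to level the typical gene, and scaling to the same sum in every library gave a median of 0.22. These scalings therefore cannot show which value stands for no change in whole liver. The median of 0.18 serves as a reference only.

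Tgfb2 (ENSMUSG00000039239, chr1:186622792-186705989) encodes a ligand that needs a co-receptor to bind TGFBR2 well. It was at 0.09, 0.02 and 0.19 FPKM in WT hepatocytes and at 0.51, 0.34 and 0.40 FPKM in Cdk1 Liv-/- hepatocytes. In whole liver it was at 0.39, 0.48 and 0.43 FPKM in WT and at 1.12, 1.01 and 1.16 FPKM in Cdk1 Liv-/- libraries. The genotypes did not overlap in either compartment, but the hepatocyte values rest on few reads, about 4 to 45 per WT library and 68 to 104 per Cdk1 Liv-/- library. Tgfb2 rose in hepatocytes, by a log2 fold change of 0.62 (0.28 to 0.95; adjusted p 0.0422), and in whole liver, by 0.77 (0.58 to 0.97; adjusted p 0.00269). With 0.1 in place of the added 0.5 these log2 fold changes were 1.45 and 1.17, and with 1 they were 0.37 and 0.55. Tgfb2 passed each time. In hepatocytes it missed the threshold without WT replicate 1 (adjusted p 0.125), mutant replicate 1 (0.105) or mutant replicate 3 (0.103). Its adjusted p there ranged from 0.00524 to 0.125 over 16 alternatives.

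Tgfb3 (ENSMUSG00000021253, chr12:86056745-86079041) encodes the remaining ligand of this family. It was at 0.16, 0.09 and 0.36 FPKM in WT hepatocytes, 0.48, 0.24 and 0.44 FPKM in Cdk1 Liv-/- hepatocytes, 0.76, 0.91 and 0.94 FPKM in WT whole liver and 2.37, 1.88 and 1.95 FPKM in Cdk1 Liv-/- whole liver. The hepatocyte groups overlapped, and every Cdk1 Liv-/- whole liver library lay above every WT one. Its log2 fold change was 0.34 (-0.10 to 0.79; adjusted p 0.277) in hepatocytes, which did not pass, and 0.90 (0.64 to 1.17; adjusted p 0.00384) in whole liver.

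FPKM is per length of transcript, so levels of the ligands can be set side by side. Tgfb1 made up 95.5%, 97.3% and 96.4% of the summed FPKM of the 3 TGF-beta ligands in WT hepatocytes and 76.4%, 75.7% and 71.0% in Cdk1 Liv-/- hepatocytes, a difference between the means of -21.98 percentage points. WT replicate 3, the library with the most Tgfb1, had a share between those of the other WT libraries, while its summed level was 15.1 FPKM against 5.53 and 4.07 FPKM. In whole liver the share of Tgfb1 was 86.8%, 86.0% and 88.7% in WT and 72.1%, 83.8% and 76.5% in Cdk1 Liv-/- libraries. The mean share of Tgfb2 was 1.13% in WT and 13.4% in Cdk1 Liv-/- hepatocytes, and 4.28% and 7.80% in whole liver. For Tgfb3 the means were 2.50% and 12.2% in hepatocytes and 8.54% and 14.8% in whole liver. For each of the 3 ligands the genotypes did not overlap in either compartment, and the exact permutation test gave p = 0.1, the smallest that 3 against 3 libraries can give, so no share can pass 0.05. A share moves when any ligand of the family moves, so the 3 are not independent. The share tests were 14 in all, 8 of them for PDGF ligands.

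**Figure D2:**
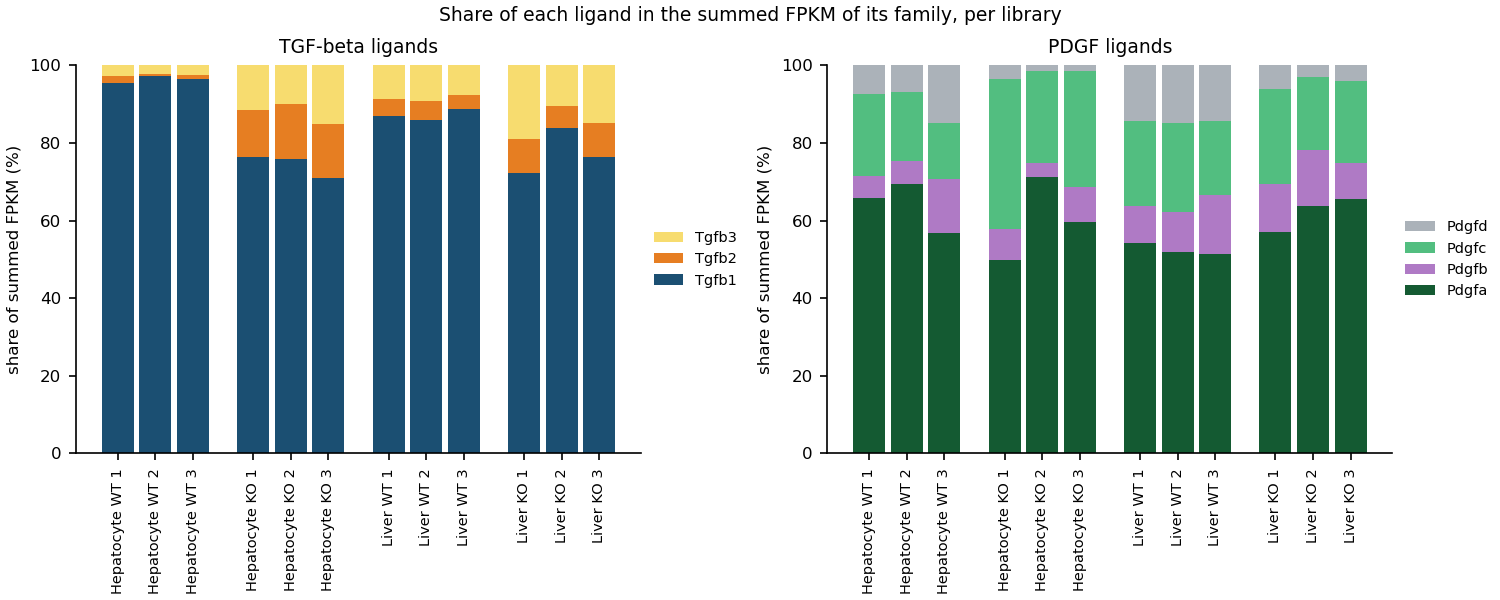
Share (%) of each ligand in the summed FPKM of the TGF-beta ligands (left) and of the PDGF ligands with Pdgfd (right), 1 bar per library. The share of Tgfb1 was 96.4% on average in WT hepatocytes and 74.4% in Cdk1 Liv-/- hepatocytes.

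Of the receptors, Tgfbr1 (ENSMUSG00000007613, chr4:47353222-47414931) encodes the type I kinase that phosphorylates SMAD2 and SMAD3. It was at 4.34, 2.73 and 3.40 FPKM in WT hepatocytes and 4.30, 6.85 and 5.68 FPKM in Cdk1 Liv-/- hepatocytes, and replicates 1 of these groups overlapped. In whole liver it was at 3.30, 3.35 and 3.26 FPKM in WT and at 5.31, 6.43 and 5.98 FPKM in Cdk1 Liv-/- libraries, with no overlap. The log2 fold change was 0.61 (0.08 to 1.15; adjusted p 0.135) in hepatocytes, which did not pass, and 0.75 (0.54 to 0.95; adjusted p 0.00319) in whole liver. Its adjusted p in hepatocytes ran from 0.0267, in the fit of all 12 libraries, to 0.294 over 17 alternatives, and it passed in that fit only.

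Tgfbr2 (ENSMUSG00000032440, chr9:116084293-116175360) encodes the type II receptor that binds the ligand first. It was at 4.96, 3.95 and 7.19 FPKM in WT hepatocytes, 9.60, 9.54 and 10.7 FPKM in Cdk1 Liv-/- hepatocytes, 5.43, 6.32 and 6.81 FPKM in WT whole liver and 12.4, 15.3 and 11.9 FPKM in Cdk1 Liv-/- whole liver. Each Cdk1 Liv-/- library lay above each WT library of the same compartment, WT hepatocyte replicate 3 being the highest of its group. Tgfbr2 rose by a log2 fold change of 0.87 (0.36 to 1.37; adjusted p 0.0501) in hepatocytes and by 1.03 (0.72 to 1.34; adjusted p 0.00398) in whole liver. The hepatocyte call was larger without WT replicate 3 (1.08, adjusted p 0.0218) but was lost without WT replicate 1 (0.143) and without Cdk1 Liv-/- replicate 1 (0.115), 2 (0.112) or 3 (0.141), and without the filter on low values (0.114), with adjusted p-values of 0.0060 to 0.143 over 17 alternatives. In all 3 Cdk1 Liv-/- hepatocyte libraries Tgfb1 thus lay below, and Tgfbr2 above, every WT hepatocyte library.

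The PDGF ligand genes begin with Pdgfa (ENSMUSG00000025856, chr5:138976014-138997370), whose product binds PDGFRA. It was at 1.98, 1.91 and 2.10 FPKM in WT hepatocytes, 3.00, 7.19 and 4.80 FPKM in Cdk1 Liv-/- hepatocytes, 2.90, 3.08 and 3.08 FPKM in WT whole liver and 9.88, 10.6 and 12.4 FPKM in Cdk1 Liv-/- whole liver. The WT libraries lay close together and below all mutant libraries of their compartment, and the Cdk1 Liv-/- hepatocyte libraries spread widely. Pdgfa rose by a log2 fold change of 1.07 (0.37 to 1.76; adjusted p 0.0680) in hepatocytes. The call was lost without any single library other than Cdk1 Liv-/- replicate 1: the adjusted p was 0.166 and 0.144 without WT replicates 1 and 2, 0.137 without WT replicate 3, and 0.113 and 0.167 without Cdk1 Liv-/- replicates 2 and 3, within 0.00638 to 0.167 over 17 alternatives. It was also lost when replicate numbers entered the fit (0.132) and without the filter on low values (0.149). In whole liver Pdgfa rose by 1.70 (1.46 to 1.93; adjusted p 0.000423), a fold change of 3.25 and the largest of the 10 genes there, also with size factors (1.49).

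Pdgfb (ENSMUSG00000000489, chr15:79995874-80014977) encodes a ligand of both receptors that endothelial cells and platelets make. It was at 0.17, 0.16 and 0.51 FPKM in WT hepatocytes, 0.49, 0.37 and 0.73 FPKM in Cdk1 Liv-/- hepatocytes, 0.52, 0.61 and 0.92 FPKM in WT whole liver and 2.13, 2.41 and 1.74 FPKM in Cdk1 Liv-/- whole liver. The hepatocyte groups overlapped through WT replicate 3, and the whole liver groups did not. Its log2 fold change was 0.42 (-0.11 to 0.94; adjusted p 0.267) in hepatocytes, which did not pass, and 1.14 (0.74 to 1.54; adjusted p 0.0062) in whole liver. The 8 platelet and megakaryocyte markers tested, of 10, had a median log2 fold change of 0.03 in whole liver, and of -0.10 with size factors. In whole liver 2 were higher, against 38% of all genes, and the log2 fold change was above 0 for 4 of the 8. The sum of the 10, led by Clec1b, was 26.5, 23.3 and 30.8 FPKM in WT against 29.4, 49.0 and 36.9 FPKM in Cdk1 Liv-/- libraries. Clec1b alone was at 11.44, 11.23 and 13.74 FPKM in WT against 16, 32.6 and 19.45 FPKM in Cdk1 Liv-/- libraries. In hepatocytes the sum of the 10 was 17.9, 12.7 and 47.8 FPKM in WT against 16.5, 9.73 and 10.1 FPKM in Cdk1 Liv-/- libraries. None of these markers was listed at 0, and their part in the level of Pdgfb was not tested.

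Pdgfc (ENSMUSG00000028019, chr3:81036416-81214040) encodes a ligand that proteases such as tissue plasminogen activator have to cut before it binds PDGFRA. It was at 0.64, 0.49 and 0.53 FPKM in WT hepatocytes, 2.32, 2.41 and 2.40 FPKM in Cdk1 Liv-/- hepatocytes, 1.17, 1.35 and 1.14 FPKM in WT whole liver and 4.24, 3.10 and 4.04 FPKM in Cdk1 Liv-/- whole liver. The libraries of each hepatocyte group lay close together and far from the other group, and WT replicate 3 did not stand apart. Pdgfc rose by a log2 fold change of 1.45 (1.13 to 1.77; adjusted p 0.00318) in hepatocytes, a fold change of 2.74 and the largest increase of the 10 genes there. It passed in all 17 alternatives, with a log2 fold change of 1.44 without WT replicate 3. In whole liver it rose by 1.31 (1.00 to 1.63; adjusted p 0.00227). Pdgfc is thus the member whose rise in hepatocytes depends on no single library.

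With Pdgfd as the remaining PDGF ligand gene, the summed FPKM of the family averaged 3.15 FPKM in WT against 8.06 FPKM in Cdk1 Liv-/- hepatocytes, and 5.77 and 17.6 FPKM in whole liver. Pdgfa had the largest share in every library, from 49.8% to 71.1%. Pdgfc took 17.8% in WT and 30.7% in Cdk1 Liv-/- hepatocytes (exact permutation p = 0.1, no overlap) but 21.2% and 21.5% in whole liver (p = 1.0 by the same exact test). The share of Pdgfd was lower in Cdk1 Liv-/- libraries in both compartments, by -7.53 percentage points in hepatocytes and -10.22 in whole liver (exact permutation p = 0.1 each). Its level did not pass the test in either, with log2 fold changes of -0.29 and -0.09 and adjusted p-values of 0.343 and 0.681. The share of Pdgfa was 52.4% in WT and 62.1% in Cdk1 Liv-/- whole liver (exact permutation p = 0.1), and overlapped in hepatocytes (p = 0.7, exact test). For Pdgfb the groups overlapped in both compartments, with exact permutation p-values of 0.8 in hepatocytes and 1.0 in whole liver. In Cdk1 Liv-/- libraries, Pdgfc thus held more of the PDGF ligand mRNA in hepatocytes and Pdgfa more in whole liver, while Pdgfd held less in both.

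Neither PDGF receptor gene passed the test in hepatocytes. Pdgfra (ENSMUSG00000029231, chr5:75152292-75198215), whose product binds dimers of PDGF-A and PDGF-C, was at 0.92, 0.34 and 1.03 FPKM in WT hepatocytes, 0.66, 0.73 and 0.87 FPKM in Cdk1 Liv-/- hepatocytes, 1.45, 1.64 and 1.52 FPKM in WT whole liver and 3.52, 3.88 and 3.35 FPKM in Cdk1 Liv-/- whole liver. The mutant hepatocyte libraries lay within the range of the WT ones, and the whole liver genotypes were apart. The log2 fold change was 0.03 (-0.57 to 0.64; adjusted p 0.949) in hepatocytes, with size factors -0.005, and 1.00 (0.80 to 1.21; adjusted p 0.0014) in whole liver.

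Pdgfrb (ENSMUSG00000024620, chr18:61045150-61085061), which encodes the receptor for PDGF-B found on stellate cells and pericytes, was at 2.06, 0.92 and 3.39 FPKM in WT hepatocytes, 0.88, 1.12 and 0.98 FPKM in Cdk1 Liv-/- hepatocytes, 4.15, 4.26 and 4.72 FPKM in WT whole liver and 7.28, 10 and 6.86 FPKM in Cdk1 Liv-/- whole liver. In hepatocytes WT replicate 3 was highest and WT replicate 2 lay among the mutant libraries, while in whole liver the genotypes did not overlap. Its log2 fold change was -0.70 (-1.58 to 0.18; adjusted p 0.262) in hepatocytes, which did not pass, and -0.36 without WT replicate 3 (adjusted p 0.4998, in a range of 0.0625 to 0.4998 over 17 alternatives, of which only the one without WT replicate 2 passed). In whole liver Pdgfrb rose by 0.79 (0.43 to 1.16; adjusted p 0.0125).

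**Figure D3:**
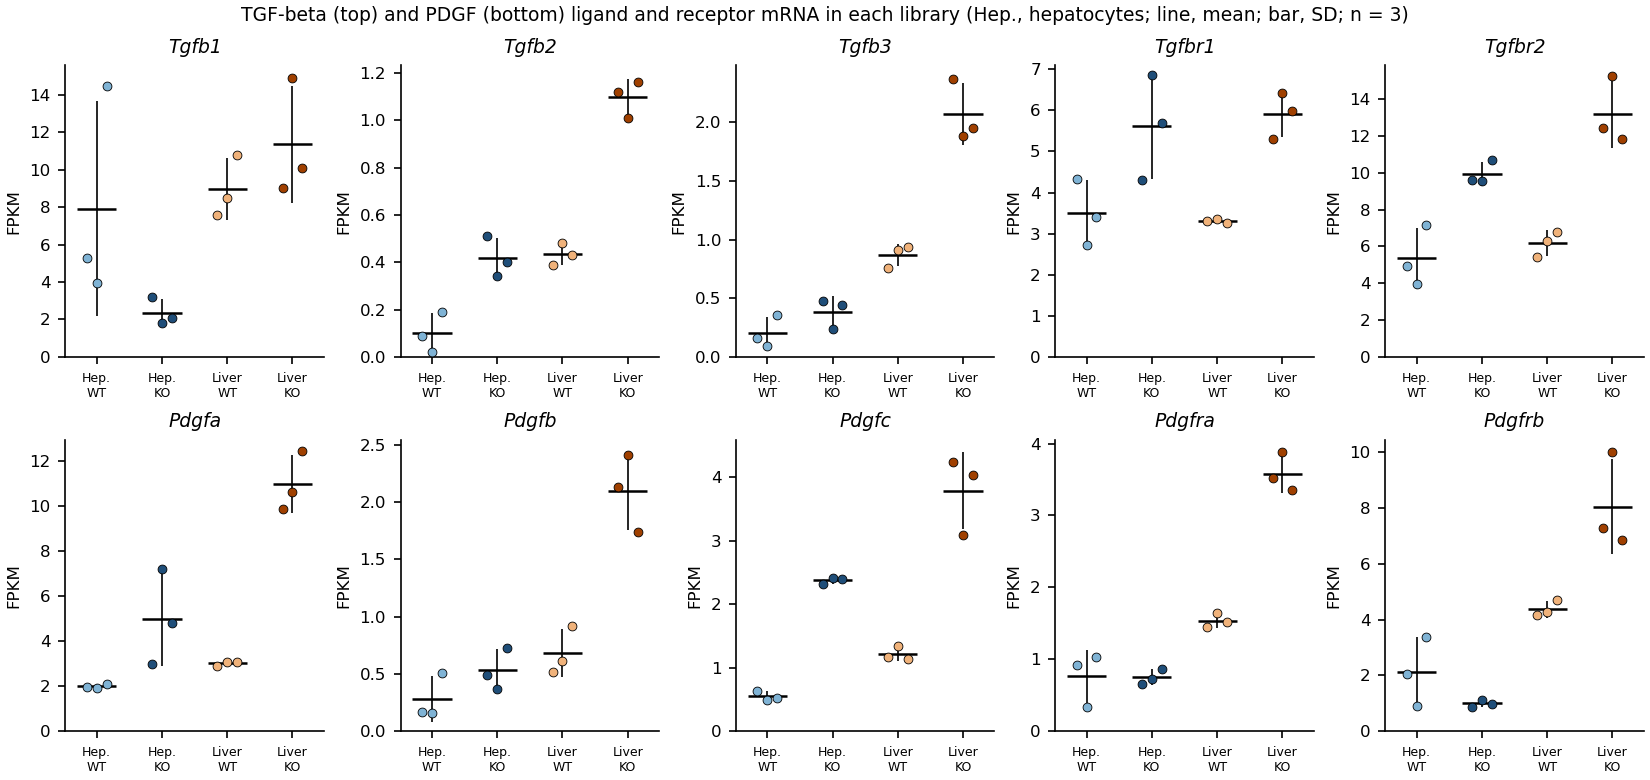
FPKM of each of the 10 genes (vertical axes) in each library, by group; lines are means and bars SD of 3 libraries. In whole liver every Cdk1 Liv-/- point lies above every WT point for 9 genes, with Tgfb1 as the exception.

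Counted over the members, 4 of 10 were higher in Cdk1 Liv-/- hepatocytes at an adjusted p of at most 0.1 (Tgfb2, Tgfbr2, Pdgfa and Pdgfc), where 12.1% of all genes tested were higher, and 0 were lower, where 6.61% were lower. Under an unadjusted p of 0.05 they were 5 and 1, with Tgfbr1 and Tgfb1 added, against 17.4% and 11% of all genes. A 2-sample test with q-values gave 4 and 0, against 14.9% and 8.12%. The groups did not overlap for 4 members that were higher and 1 that was lower, against 20.6% and 13.4% of all genes. The median log2 fold change was 0.51 for the members and 0.05 for all genes. With size factors the split over all genes went from 2108 higher and 1149 lower, 64.7% higher, to 1709 and 1414, 54.7% higher, and Tgfb1 passed as lower with an adjusted p of 0.0999. The counts depend on single libraries. From 4 members and 3257 of all genes they went to 1 member when WT replicate 1 (1559 genes) or mutant replicate 3 (2053) was left out, and to 2 when mutant replicate 1 (2195) or 2 (2269) was. They were 3 members and 2260 genes without WT replicate 3, and 5 and 2498 without WT replicate 2, when 3 members were higher and Tgfb1 and Pdgfrb were lower.

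In whole liver 9 of 10 members were higher in Cdk1 Liv-/- mice, all but Tgfb1, where 38% of all genes tested were higher. No member was lower by limma's test, under an unadjusted p of 0.05 or by the 2-sample test with q-values, where 7.53%, 7.74% and 12.1% of all genes were lower. The genotypes did not overlap for the same 9 genes, all higher, against 43.2% of genes higher and 8.94% lower without overlap. The median log2 fold change of the members was 0.95, and with size factors it was 0.77, against 0.18 and 0.01 for all genes. Size factors cut the share of higher calls over all genes from 83.5% (6610 higher, 1310 lower) to 52.2% (3107 and 2844), yet the 9 members passed there too, with log2 fold changes of 0.55 to 1.49. Scaling to the same sum in every library gave 7372 higher and 1181 lower of all genes, and the 9 members passed. The 9 genes also passed without Cdk1 Liv-/- whole liver replicate 3 and without each other whole liver library. Their highest adjusted p was 0.0525, for Pdgfrb.

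**Figure D4:**
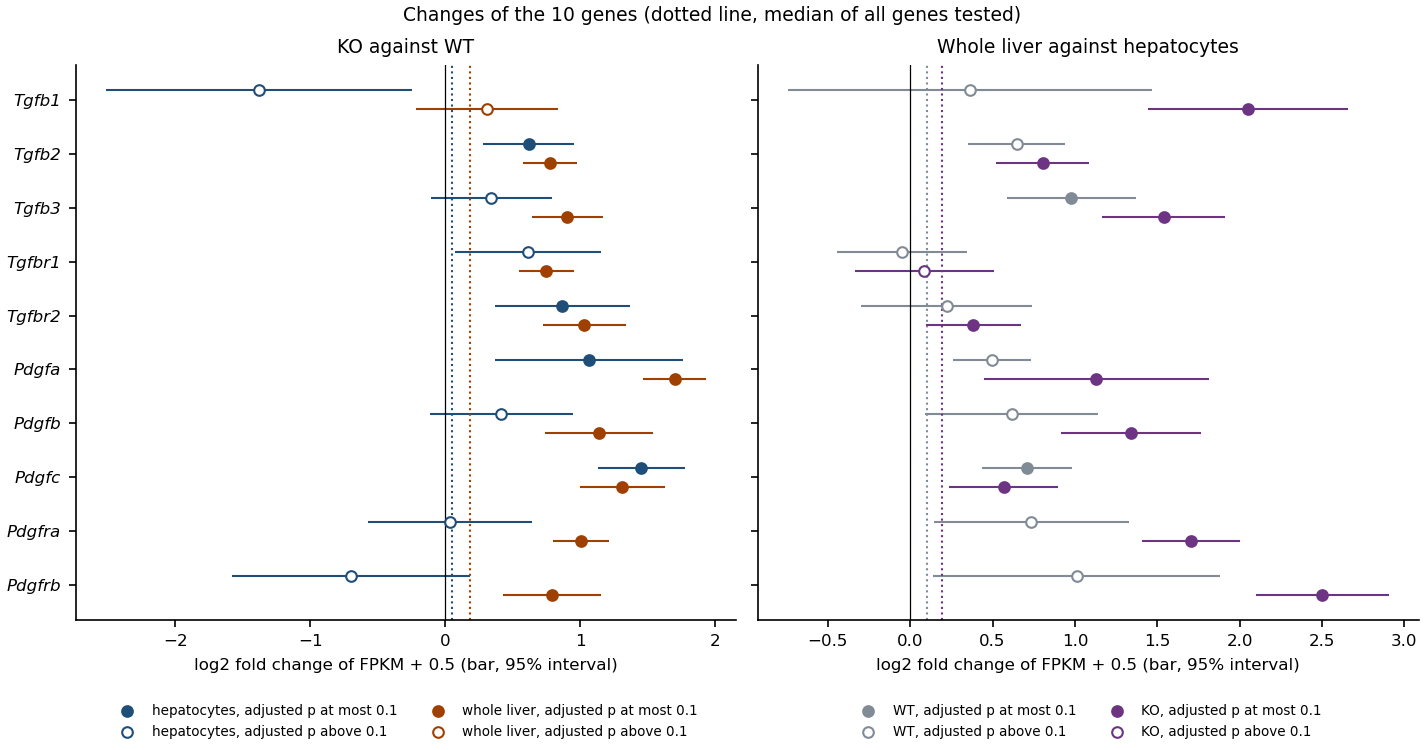
Log2 fold change of FPKM + 0.5 (horizontal axes) of the 10 genes with 95% confidence intervals, for Cdk1 Liv-/- against WT (left) and whole liver against hepatocytes (right); filled points passed limma's test at an adjusted p of at most 0.1. In whole liver the changes run from 0.31 for Tgfb1 to 1.70 for Pdgfa, and in hepatocytes from -1.38 for Tgfb1 to 1.45 for Pdgfc.

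A further test, an interaction term fitted to all 12 libraries, asked whether the log2 fold change in hepatocytes differs from that in whole liver, the first minus the second. It passed for 2 of 10 members, both lower in hepatocytes: Pdgfrb at -1.49 (standard error 0.41, adjusted p 0.0752) and Pdgfra at -0.97 (standard error 0.28, adjusted p 0.0818). Of all genes, 7.49% passed as lower and 2.35% as higher, and no member passed as higher, also not under an unadjusted p of 0.05, where 5 were lower, against 5.72% of all genes higher and 17.9% lower. With median-ratio size factors the differences were -1.35 and -0.82 and neither receptor passed (adjusted p 0.1004 and 0.1264), when the split over all genes went from 409 higher and 1303 lower, 23.9% higher, to 548 and 492, 52.7% higher. Pdgfrb passed without WT hepatocyte replicate 3 (-1.15, adjusted p 0.0968), Pdgfra did not (-0.81, adjusted p 0.137), and without Cdk1 Liv-/- whole liver replicate 3 neither passed (0.109 and 0.118). Over 22 alternatives the adjusted p ranged from 0.00809 to 0.171 for Pdgfrb and from 0.00627 to 0.184 for Pdgfra. Leaving out 1 library gave a count of 0 members for any WT whole liver library, for Cdk1 Liv-/- whole liver replicates 2 and 3, for Cdk1 Liv-/- hepatocyte replicates 1 and 3 and for replicate 1 of WT hepatocytes, with 78 to 1120 of all genes passed against 1712 with all libraries. It was 1 without WT hepatocyte replicate 3 (918 genes) or Cdk1 Liv-/- whole liver replicate 1 (1253), and 4 without WT hepatocyte replicate 2 (2639). Without Cdk1 Liv-/- hepatocyte replicate 2 (1528) it was 2, with Pdgfa (adjusted p 0.0634) in place of Pdgfra (0.110). The difference for Tgfb1 was -1.69 (adjusted p 0.103), for Pdgfc 0.14 (adjusted p 0.681) and for Tgfb2 -0.16 (adjusted p 0.632). For the 10 stellate cell markers the median difference was -1.33; 2 passed, both lower in hepatocytes, and 8 did not. Their sum was in hepatocytes highest in WT replicate 3, as given above, and its part in the difference of the receptors was not tested.

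Comparing compartments within a genotype shows where each gene is measured at the higher level. These comparisons use the same libraries as those between genotypes and are not independent of them. In WT mice 2 of 10 members were higher in whole liver than in hepatocytes, where 1.42% of all genes were higher and 0.104% lower: Tgfb3, by 0.98 on the log2 scale (adjusted p 0.0864), and Pdgfc, by 0.71 (adjusted p 0.0840). No member was lower, also not under an unadjusted p of 0.05, where 7 were higher, against 16.1% of all genes higher and 2.77% lower. The groups did not overlap for 7 members, all higher in whole liver, against 20.7% of genes higher and 5.28% lower. The WT count was 8 without hepatocyte replicate 3, when 3069 of all genes passed against 265 with all libraries. It was 0 without each of the other 5 libraries, when 1 to 65 genes passed, and 0 with size factors. The adjusted p over the alternatives ran from 0.0315 to 0.312 for Tgfb3 and from 0.0508 to 0.301 for Pdgfc. Without that library Pdgfrb was higher in whole liver by 1.35 (adjusted p 0.0555) and Tgfb1 by 0.88 (adjusted p 0.0629), and over all 15 alternatives theirs ran up to 0.491 and 0.999.

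In Cdk1 Liv-/- mice 9 of 10 members were higher in whole liver, all but Tgfbr1, where 35.9% of all genes were higher and 8.86% lower. No member was lower, also not under an unadjusted p of 0.05, where 9.38% of all genes were. The 9 did not overlap between compartments, against 40.3% of genes higher and 10.5% lower. Pdgfrb differed most, by 2.50 on the log2 scale (adjusted p 0.000587), followed by Tgfb1 at 2.05 (adjusted p 0.00245) and Pdgfra at 1.71 (adjusted p 0.000639). Tgfbr2 and Pdgfc differed least of the 9, by 0.38 (adjusted p 0.0491) and 0.57 (adjusted p 0.0229), and with size factors, which took the median of all genes from 0.19 to -0.02, they no longer passed (0.12 and 0.33, adjusted p 0.447 and 0.122). Tgfbr2 also missed the threshold without hepatocyte replicate 1 (0.107) or 2 (0.110) or whole liver replicate 2 (0.106) and when replicate numbers entered the fit (0.113), within 0.0462 to 0.447 over 15 alternatives, and Pdgfc stayed within 0.0154 to 0.122. The split over all genes went from 80.2% higher (6234 against 1540) to 51.4% (3710 against 3502) with size factors, and in WT from 93.2% (247 against 18) to 86.1% (68 against 11). All 10 of 10 stellate, 10 of 10 Kupffer and 9 of 9 endothelial markers were higher in whole liver as well, with medians of 2.11, 2.02 and 1.77. So were 10 of 10 monocyte and neutrophil, 10 of 10 lymphocyte and 7 of 7 cholangiocyte markers (medians 2.05, 1.58 and 1.34). Of the erythroid markers 6 of 8 were higher, and of the platelet markers 4 of 8. In WT mice 4 of 7 cholangiocyte, 2 of 10 lymphocyte, 1 of 10 monocyte and neutrophil and 1 of 8 erythroid markers were higher. No other marker passed there. The part of the markers in the differences between compartments was not tested.

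Cdk1 Liv-/- whole liver had the highest group mean for all 10 genes. The next highest was WT whole liver for Tgfb1, Tgfb2, Tgfb3, Pdgfb, Pdgfra and Pdgfrb, and Cdk1 Liv-/- hepatocytes for Tgfbr1, Tgfbr2, Pdgfa and Pdgfc. For Tgfb2 these neighbours, at 0.433 ± 0.0451 and 0.417 ± 0.0862 FPKM (SD, n = 3 each), lay within their spread, as did Cdk1 Liv-/- whole liver and hepatocytes for Tgfbr1, at 5.91 ± 0.564 and 5.61 ± 1.28 FPKM. So did the first 3 groups for Tgfb1, at 11.4 ± 3.14 in Cdk1 Liv-/- whole liver, 8.96 ± 1.66 in WT whole liver and 7.91 ± 5.74 FPKM in WT hepatocytes. The next highest group and the one below it also did for Pdgfa, Cdk1 Liv-/- hepatocytes at 5 ± 2.10 and WT whole liver at 3.02 ± 0.104 FPKM, and for Pdgfb, WT whole liver at 0.683 ± 0.210 and Cdk1 Liv-/- hepatocytes at 0.530 ± 0.183 FPKM. Pdgfc had 3.79 ± 0.609 FPKM in Cdk1 Liv-/- whole liver, 2.38 ± 0.0493 FPKM in Cdk1 Liv-/- hepatocytes, 1.22 ± 0.114 FPKM in WT whole liver and 0.553 ± 0.0777 FPKM in WT hepatocytes, each group apart from the next. Between genes, Tgfb1 was the most abundant of the 10 in WT whole liver at 8.96 ± 1.66 FPKM, followed by Tgfbr2 at 6.19 ± 0.700 and Pdgfrb at 4.38 ± 0.302 FPKM, and Tgfb2 was the least abundant. In Cdk1 Liv-/- hepatocytes the most abundant was Tgfbr2, at 9.94 ± 0.642 FPKM, and Tgfb1, at 2.36 ± 0.747 FPKM, was within the spread of Pdgfc.

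Markers of other cell types were compared in whole liver too, where 38% of all genes were higher and 7.53% lower. Of the 10 stellate cell markers, 4 were higher and 1 lower in Cdk1 Liv-/- whole liver, with a median log2 fold change of 0.46, and of the 10 Kupffer cell markers 4 were higher, with a median of 0.23. Of the 9 endothelial markers 1 was higher, with a median of 0.06. The 10 monocyte and neutrophil markers, led by Lyz2, had a median of 1.30 with 7 higher, and summed to 113, 90.1 and 126 FPKM in WT against 185, 465 and 356 FPKM in Cdk1 Liv-/- whole liver. Of the 7 cholangiocyte markers tested, of 8, 5 were higher with a median of 1.26, and their sum, led by Spp1, was 71.1, 75.7 and 57.8 FPKM in WT against 287, 152 and 275 FPKM in Cdk1 Liv-/- whole liver. Those of monocytes and neutrophils and of cholangiocytes thus had larger medians than the 10 ligand and receptor genes, at 0.95. The 8 erythroid markers, led by Hbb-bs, had 3 lower and a median of 0.09, the 10 lymphocyte markers, led by Gzma, had 3 lower and a median of -0.26, and the 8 hepatocyte markers had 4 lower and a median of -0.36. No marker was listed at 0 in a whole liver library, and their part in the rise of the 9 genes was not tested. With size factors the medians were 0.26 for stellate, 0.01 for Kupffer, -0.15 for endothelial, 1.09 for monocyte and neutrophil and 1.07 for cholangiocyte markers, against 0.01 for all genes. For erythroid, lymphocyte and hepatocyte markers they were -0.13, -0.44 and -0.58.

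In hepatocytes, where 12.1% of all genes were higher and 6.61% lower, the markers of most other cells were lower or did not pass. All 9 endothelial markers were lower in Cdk1 Liv-/- hepatocytes, with a median of -1.79, as were 2 of 10 stellate (median -0.91), 1 of 10 Kupffer (-1.17), 2 of 8 erythroid (-1.29) and 5 of 10 lymphocyte markers (-0.65). Of the 10 monocyte and neutrophil markers 1 was higher (median -0.28), 0 of 8 platelet markers passed by limma with 1 lower under an unadjusted p of 0.05 (-0.48), and 2 of 8 hepatocyte markers were higher and 2 lower (-0.05). The exception was cholangiocyte markers, of which 5 of 7 were higher with a median of 0.72. Their sum was 29.2, 24.0 and 38.8 FPKM in WT against 74, 133 and 110 FPKM in Cdk1 Liv-/- hepatocytes, and 1 of the 8 was listed at 0 in WT replicate 2. Monocyte and neutrophil markers summed to 51.6, 36.0 and 117 FPKM in WT and to 48.5, 33.8 and 45.2 FPKM in Cdk1 Liv-/- hepatocytes. The rise of Tgfb2, Tgfbr2, Pdgfa and Pdgfc was thus measured beside 9 of 9 endothelial markers lower and 5 of 7 cholangiocyte markers higher, while 8 of 10 stellate and 9 of 10 Kupffer markers did not pass. Under an unadjusted p of 0.05, 5 of 10 stellate and 7 of 10 Kupffer markers were lower and 0 were higher. Of all genes, 17.4% were higher and 11% lower by that rule. The part of any of these markers in the rise of Tgfb2, Tgfbr2, Pdgfa and Pdgfc was not tested. Nor was their part in the lower level and share of Tgfb1. For erythroid markers the sums were 112, 81.7 and 399 FPKM in WT against 48.7, 77.4 and 19.8 FPKM in Cdk1 Liv-/- hepatocytes, then 796, 868 and 1532 FPKM in WT against 777, 1205 and 955 FPKM in Cdk1 Liv-/- whole liver. Lymphocyte markers summed to 6.64, 4.29 and 11.5, to 2.17, 1.54 and 1.61, to 22.4, 27.7 and 22.2, and to 11.4, 21.6 and 15.2 FPKM in the same order.

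The rest of both pathways was described with 7 lists that hold 81 genes in all, some on more than 1 list. Their counts stand beside 12.1% of all genes higher and 6.61% lower in hepatocytes, and 38% higher and 7.53% lower in whole liver. Among genes that store or activate TGF-beta, 13 of 15 were tested, and 1 was higher and 3 were lower in Cdk1 Liv-/- hepatocytes (median log2 fold change -0.50), against 8 and 1 in whole liver (median 0.53, with size factors 0.34). Ltbp4, which encodes a binding protein of latent TGF-beta in the matrix, was at 12.6, 10.9 and 39.9 FPKM in WT and at 5.10, 3.47 and 2.83 FPKM in Cdk1 Liv-/- hepatocytes. It fell by 2.11 (adjusted p 0.0493), and by 1.54 without WT replicate 3 (adjusted p 0.0347). Lrrc32 and Nrros, whose products hold latent TGF-beta on cell surfaces, fell by 1.52 and 1.10 (adjusted p 0.0637 and 0.0847), of which Nrros did not pass without that library (adjusted p 0.119), and Itgav, an integrin chain that takes part in its release, rose by 0.52 (adjusted p 0.0602). In whole liver Thbs1, whose product can activate latent TGF-beta, rose by 1.53 (adjusted p 0.0015), from 1.39 ± 0.3 to 4.9 ± 0.29 FPKM (SD, n = 3 each). Ltbp2 rose there by 1.04 (adjusted p 0.0152), Itgb5 by 0.43 (adjusted p 0.00431), and Furin, the protease that cuts the ligand precursor, fell by 0.20 (adjusted p 0.0338). That library was left out for the genes of these lists after the data were seen: outside the members, 10 of the 13 that fell in hepatocytes and all 6 that rose passed without it. The stellate, endothelial and Kupffer cell markers had medians of -0.91, -1.79 and -1.17 in hepatocytes, and cholangiocyte markers one of 0.72. The part of these markers in the falls of genes on these lists was not tested.

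The list of 4 co-receptors and decoys also counts Acvrl1, which encodes a type I receptor. Of the 4, 2 were lower in Cdk1 Liv-/- hepatocytes (median -0.99) and 2 were higher in whole liver (median 0.23, with size factors 0.02). Tgfbr3, which encodes betaglycan, the co-receptor that presents TGF-beta 2, fell by 1.21 in hepatocytes (adjusted p 0.02), from 3.49 ± 0.94 to 1.2 ± 0.13 FPKM (SD, n = 3 each). Eng, an endothelial co-receptor, fell by 1.88 (adjusted p 0.0295). In whole liver Bambi, a decoy receptor, rose by 0.57 (adjusted p 0.0165) and Acvrl1 by 0.43 (adjusted p 0.0848). The 9 endothelial markers were lower in Cdk1 Liv-/- hepatocytes, and their part in the falls of Tgfbr3 and Eng was not tested.

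Of the 12 SMADs and their regulators, 1 was higher and 3 were lower in Cdk1 Liv-/- hepatocytes (median -0.07), and 9 were higher in whole liver (median 0.33, with size factors 0.13). Tgif1, a repressor that binds SMADs, rose in both, by 1.06 (adjusted p 0.0527) in hepatocytes and 1.21 (adjusted p 0.00701) in whole liver. The inhibitory Smad6 and Smad7 fell in hepatocytes by 1.35 and 0.73 (adjusted p 0.0580 and 0.0808), and Skil by 0.69 (adjusted p 0.0545). Of these, Smad7 did not pass without WT replicate 3 (adjusted p 0.184). The part of the markers of other cell types in the falls of Smad6, Smad7 and Skil was not tested. In whole liver Smad7 rose by 0.31 (adjusted p 0.0753), Smurf1 by 0.27 (adjusted p 0.0972) and Pmepa1 by 0.78 (adjusted p 0.00297). The median of all genes tested was 0.18 there, and calls with size factors are not given here for genes of the pathway lists.

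Of 17 genes known to be induced by TGF-beta, 2 were higher and 2 lower in Cdk1 Liv-/- hepatocytes (median -0.50), and 12 were higher in whole liver (median 0.78, with size factors 0.60). Timp1, which encodes an inhibitor of matrix proteases, was at 0.03, 0.10 and 0.14 FPKM in WT against 6.83, 9.88 and 12.8 FPKM in Cdk1 Liv-/- hepatocytes, and at 0.35, 0.30 and 0.85 FPKM in WT against 19.5, 30.1 and 21.6 FPKM in Cdk1 Liv-/- whole liver. It rose most of these genes in both compartments, by 4.09 (adjusted p 0.0011) and 4.62 (adjusted p 0.000416). Col1a1 rose by 1.80 in whole liver (adjusted p 0.00783), from 21.3 ± 4.03 to 78.2 ± 30.3 FPKM (SD, n = 3 each), and was at 4.07 ± 4.65 and 2.61 ± 0.580 FPKM in hepatocytes. Cdkn2b, a cell cycle inhibitor, rose by 0.43 in hepatocytes (adjusted p 0.0269), from 0.03 ± 0.02 to 0.22 ± 0.04 FPKM (SD, n = 3 each). Smad7 and Skil, already named, were the 2 that fell there, and Ctgf rose by 0.39 in whole liver (adjusted p 0.0739). Of the 17, 5 did not pass in whole liver and 13 did not in hepatocytes, where Col1a1 was highest in WT replicate 3, at 9.40 FPKM. The medians of the stellate cell markers, 0.46 in whole liver and -0.91 in hepatocytes, lay on the same sides of 0, and their part was not tested.

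**Figure D5:**
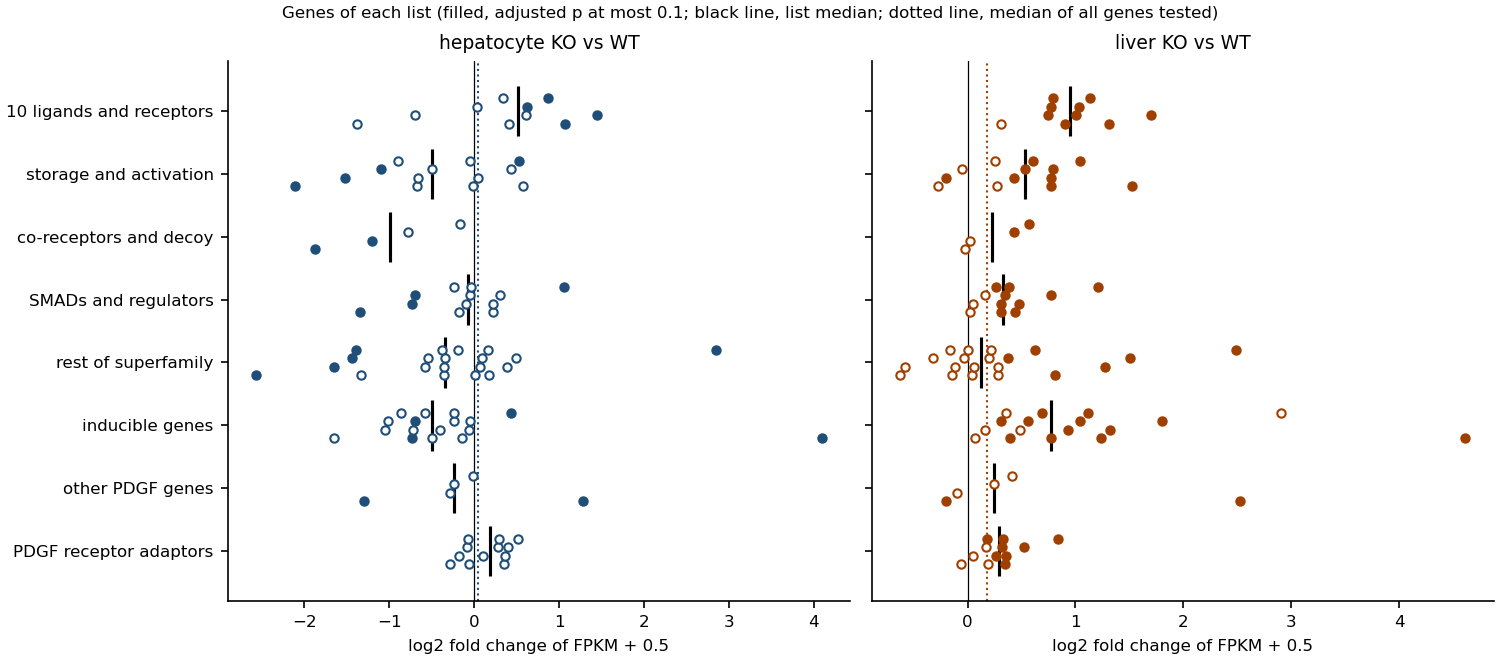
Log2 fold change of FPKM + 0.5 (horizontal axes) of each gene of the 8 lists, Cdk1 Liv-/- against WT in hepatocytes (left) and whole liver (right); filled points passed limma's test and black lines are list medians. The median of the 10 ligand and receptor genes was 0.51 in hepatocytes and 0.95 in whole liver.

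Of 20 other ligands, receptors and antagonists of the TGF-beta superfamily tested, of 21, 1 was higher and 4 were lower in Cdk1 Liv-/- hepatocytes (median -0.35), and 6 were higher in whole liver (median 0.13, with size factors -0.06). Gdf15 rose in both, by 2.84 (adjusted p 0.00614) and 2.49 (adjusted p 0.0031). Inhbb, which encodes an activin subunit, fell in hepatocytes by 2.56 (adjusted p 0.00196), from 13.6 ± 0.760 to 1.93 ± 0.610 FPKM (SD, n = 3 each), with 10.5 ± 3.27 and 12.6 ± 2.05 FPKM in whole liver. Bmp10 and Bmp5 fell in hepatocytes by 1.65 (adjusted p 0.0337) and 1.39 (adjusted p 0.0809), the latter not without WT replicate 3 (adjusted p 0.169). The part of the markers of other cell types in the falls of Inhbb, Bmp10 and Bmp5 was not tested. In whole liver Fst rose by 1.5 (adjusted p 0.0552), Bmp6 by 0.63 (adjusted p 0.0319) and Bmpr1a by 0.37 (adjusted p 0.0243).

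Of 5 other genes of the PDGF pathway (Pdgfd, Pdgfrl and the proteases Plat, Plau and Furin), 1 was higher and 1 lower in each compartment, with medians of -0.24 in hepatocytes and 0.24 in whole liver (with size factors 0.08). Plat encodes tissue plasminogen activator, which cuts PDGF-C. It rose by 1.28 in hepatocytes (adjusted p 0.0400), from 0.13 ± 0.16 to 1.06 ± 0.52 FPKM, and by 2.52 in whole liver (adjusted p 0.000881), from 0.41 ± 0.14 to 4.77 ± 1.07 FPKM (SD, n = 3 each). Pdgfc and the protease that acts on its product thus rose in both compartments. Plau fell by 1.30 in hepatocytes (adjusted p 0.0991), and by 0.82 without WT replicate 3 (adjusted p 0.0586).

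Of 12 adaptors and enzymes that bind PDGF receptors, 0 passed in hepatocytes by limma, with 2 higher and 0 lower under an unadjusted p of 0.05 (median 0.19). In whole liver 8 were higher (median 0.29, with size factors 0.08), among them Src by 0.84 (adjusted p 0.000823), Nck2 by 0.53 (adjusted p 0.0116), Grb2 by 0.26 (adjusted p 0.0232) and Crk by 0.18 (adjusted p 0.0374), the last of which equals the median of all genes.

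Between compartments in Cdk1 Liv-/- mice, 12 of 13 genes for storage and activation, 4 of 4 co-receptors and decoys, 15 of 17 inducible genes and 4 of 5 other PDGF genes were higher in whole liver, where 35.9% of all genes were higher. So were 12 of 20 superfamily genes, with Gdf15 lower, 5 of 12 SMADs and regulators, and 5 of 12 adaptors, with Sos1 lower by -0.43 (adjusted p 0.0281). Col1a1 and Acta2 differed most among the inducible genes, by 4.61 (adjusted p 0.000474) and 4.23 (adjusted p 0.000754), and Ltbp4 and Dcn among those for storage, by 3.08 (adjusted p 0.00062) and 2.54 (adjusted p 0.000292). In WT mice 1 gene for storage, Ltbp2, and 2 inducible genes, Lox and again Ltbp2, were higher in whole liver, by 1.27 for Lox (adjusted p 0.0840) and 1.15 for Ltbp2 (adjusted p 0.0864), against 1.42% of all genes higher and 0.104% lower. All 265 calls there went to 79 with size factors and to 0 when replicate numbers entered the fit.

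The profile of a member over the 12 libraries was compared with those of all other genes of a mean of at least 1 FPKM, as the root mean square distance between centred and scaled log2(FPKM + 0.5). Nearest to Pdgfrb were Col1a2 (0.078) and Col3a1 (0.086), and nearest to Tgfb1 were Rasip1 (0.083) and Adora2a (0.135). For Pdgfra they were Plac8 (0.131) and Prkra (0.190), for Tgfb3 Zbtb8a (0.110) and Mustn1 (0.155), and for Tgfbr2 Anxa5 (0.169) and Dgcr14 (0.188). The nearest to the other members were Cdk11b (0.17) and Pdcd6 (0.190) for Tgfb2, Rps6ka4 (0.182) and Il3ra (0.184) for Pdgfb, Thumpd1 (0.197) and Nudt18 (0.222) for Pdgfa, Fopnl (0.2) and Atox1 (0.214) for Pdgfc, and Kif3a (0.202) and Naip2 (0.213) for Tgfbr1. Among the members, Tgfb3 and Pdgfra were nearest to each other (0.292), and Tgfb1 and Tgfbr1 were farthest apart (1.56). Tgfb1 was also the member farthest from Tgfb2, Tgfbr2, Pdgfa and Pdgfc, which are the 4 that rose in hepatocytes. These distances use the same values as the fold changes and are not independent of them.

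The depth behind these values was estimated from the steps between the lowest FPKM of short transcripts: 1 FPKM on 1 kb stood for 34.6 to 49.8 reads in the 12 libraries, with 63.6% to 68.8% of the genes used within 0.1 reads of a whole number. At that depth the lowest values rest on few reads, for Tgfb3 about 11 to 56 per WT and 31 to 64 per Cdk1 Liv-/- hepatocyte library, and for Pdgfb 18 to 69 and 42 to 72. Tgfbr2 rests on 1223 to 5793 reads per library.

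Genes annotated on the opposite strand overlap Tgfb2 (Gm26169 and Gm29491), Tgfb3 (Ttll5, Gm37804 and Gm48008), Pdgfa (6330403L08Rik), Pdgfb (Gm41361), Pdgfc (Gm16000) and Pdgfra (Gm42802 and Gm42803), while Tgfb1, Tgfbr1, Tgfbr2 and Pdgfrb overlap none. The libraries were stranded, but the strand setting of the quantification is not given in the sources used here, so reads of those genes cannot be told apart from reads of the member with certainty.

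The study also lists PCR primers of 22 bases for 2 of the genes, whose values are not used here. Matched to GENCODE transcripts, the Tgfb2 pair spans 147 bases of coding sequence (chr1:186704549-186704695) in both of its 2 coding transcripts. The Pdgfra pair spans 127 bases (chr5:75162290-75162416) of the retained-intron transcript Pdgfra-204, and neither primer occurs in any of its 7 coding transcripts. Whole primers are in capitals.
Tgfb2 forward: TCGACATGGATCAGTTTATGCG
Tgfb2 reverse: CCCTGGTACTGTTGTAGATGGA
Pdgfra forward: AGGTATGTATCCACACATGCGT
Pdgfra reverse: AGTTCCTGTTGGTTTCATCTCG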

How the data were processed

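The authors isolated RNA from hepatocytes and whole liver, made stranded libraries of polyadenylated RNA, sequenced single-end reads of 75 bp, aligned them with STAR and quantified genes with RSEM 1.2.31 on mm10. The deposited values are FPKM to 2 decimals, which the authors did not normalize between libraries. From these, log2(FPKM + 0.5) was fitted with limma 3.58.1 (lmFit, eBayes with a trend) in R 4.3.3, within each compartment or genotype for comparisons of 6 libraries and over all 12 for the interaction. Shares, sums, profile distances and exact tests were computed with Python 3.11.15, pandas 2.3.3 and scipy 1.17.1, and figures with matplotlib 3.10.9. The fits were also run on simulated data, whose outcome is not given here. Gene positions came from GENCODE M21, where 46488 of the 47069 genes were found, and promoters from RefSeq.

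The study states biological replicates, at least 3, for its experiments in general, and the labels name no animal for a library, so the p-values measure the spread between these samples. Where 1 library is left out, limma pools the spread over the groups. Alternatives changed the pseudocount, the filter, the scaling, the trend, the threshold, the libraries, or added a replicate block. The members, the 7 pathway lists and the 9 marker lists were chosen with earlier results of these data known. Fcn3, an endothelial marker, was not matched in the table. Genes named are the members, 2 from the top and 2 from the bottom of each pathway list when its passed genes are ordered by log2 fold change, the label checks, the 2 genes nearest to each member and the most abundant marker of each list. Not each of them is reported for each comparison.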

Additional observations from a re-analysis of the deposited data

Results flagged for a closer look

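The interaction term of limma over 12 libraries, a test of the difference between compartments itself, passed for 2 of the 10 ligand and receptor genes and for 20 pathway genes named from its calls, up to 4 per list, so that the number follows from that rule. Genes named for other reasons passed too, among them Lox, Nrros, Pmepa1, Dcn and Col3a1. In each of the 22, the log2 fold change in hepatocytes was below that in whole liver, as for 7.49% of all genes, against 2.35% that passed the other way. Of the 10, these were Pdgfrb at -1.49 (adjusted p 0.0752; -0.70 in hepatocytes and 0.79 in whole liver) and Pdgfra at -0.97 (adjusted p 0.0818; 0.03 and 1.00). Of 22 alternatives, Pdgfrb did not pass in 12 and Pdgfra in 17, and with size factors neither did (adjusted p 0.1004 and 0.1264). With size factors 548 of all genes passed as higher and 492 as lower, so the excess of lower calls was absent. Calls of the 20 pathway genes with size factors are not given here.

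Of the genes induced by TGF-beta, the difference was -2.34 for Postn (adjusted p 0.0805), -2.33 for Col1a2 (adjusted p 0.0788), -1.04 for Smad7 (adjusted p 0.0548), -0.85 for Skil (adjusted p 0.0590) and -0.69 for Cdkn2b (adjusted p 0.0406). Postn, Col1a2, Smad7 and Skil had a log2 fold change below 0 in hepatocytes (-1.65, -1.01, -0.73 and -0.69) and above 0 in whole liver (0.69, 1.32, 0.31 and 0.16). Cdkn2b was above 0 in both, at 0.43 and 1.12.

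Among genes for storage and activation it was -2.06 for Ltbp4 (adjusted p 0.0733), -1.79 for Lrrc32 (adjusted p 0.0707), -1.09 for Ltbp2 (adjusted p 0.0521) and -0.39 for Itgb5 (adjusted p 0.0869). Co-receptors and decoys gave -1.90 for Eng (adjusted p 0.0521), -1.19 for Tgfbr3 (adjusted p 0.0396) and -0.74 for Bambi (adjusted p 0.0783). The regulators Smad6 and Ski gave -1.79 (adjusted p 0.0521) and -0.56 (adjusted p 0.0915).

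In the rest of the superfamily, Inhbb had the largest difference, -2.84 (adjusted p 0.00702; -2.56 in hepatocytes and 0.28 in whole liver), with Bmp2 at -1.50 (adjusted p 0.0595), Acvr1 at -0.59 (adjusted p 0.0747) and Bmpr2 at -0.56 (adjusted p 0.0800). The proteases Plau and Plat gave -1.71 (adjusted p 0.0884) and -1.24 (adjusted p 0.0831), and Plat was higher in both compartments, by 1.28 and 2.52.

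The endothelial markers differed between compartments too, with 8 of 9 passed and a median difference of -1.74, and so did 4 of 10 Kupffer cell markers, with a median of -1.43, and 3 of 10 monocyte and neutrophil markers, with a median of -1.45. Their sums were highest among hepatocyte libraries in WT replicate 3, at 241, 668 and 117 FPKM. Whether these 22 differences follow those markers was not tested, and for the 20 genes that are not among the 10 the only alternative, chosen after seeing the data, left out WT hepatocyte replicate 3. Of them, 15 passed without it, and Itgb5, Bambi, Ski, Plat and Bmpr2 did not (adjusted p 0.157, 0.131, 0.158, 0.145 and 0.133).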

How the results depend on the processing

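Over 845 pairs of a member and an alternative, 733 kept their direction and their side of the threshold, 80 no longer passed, 21 passed anew and 11 changed direction, none of which passed. For members and for all genes past the test, the main counts were 4 and 3257 in hepatocytes, 9 and 7920 in whole liver, 2 and 1712 for the interaction, 2 and 265 between WT compartments, and 9 and 7774 between Cdk1 Liv-/- compartments.

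A log2 fold change of at least 1 as well left 2 members and 1107 genes in hepatocytes, and 5 and 972 in whole liver. It left 1 and 688 for the interaction, 0 and 81 between WT compartments and 6 and 1906 between Cdk1 Liv-/- compartments. Without the filter on low values 2 members passed in hepatocytes, and 0 members and 915 genes for the interaction. A pseudocount of 0.1 left 1 member for the interaction and 1 between WT compartments, and a filter at a mean of 1 FPKM left 0 members and 89 genes between WT compartments. Size factors gave 0 members and 1040 genes for the interaction, and 0 and 79 between WT compartments, where the same sum in every library gave 0 and 118. With the replicate block, 3 members and 1456 genes passed in hepatocytes, 0 members and 656 genes for the interaction, and 0 and 0 between WT compartments. Replicate numbers are not pairs: correlations across genes between libraries of 1 number were -0.32 to 0.24. One fit of all 12 libraries gave 6 members, with Tgfb1 and Tgfbr1, and 5506 genes in hepatocytes.

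Without 1 library at a time, members ranged from 1 to 5 and genes from 1559 to 2498 in hepatocytes, from 0 to 4 and 78 to 2639 for the interaction, and from 0 to 8 and 1 to 3069 between WT compartments. Without WT hepatocyte replicate 3 and Cdk1 Liv-/- whole liver replicate 3 together, chosen after seeing the data, 0 members and 452 genes passed for the interaction.

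Direction changed for Pdgfra in hepatocytes (-0.005 with size factors, -0.24 to 0.20 without 1 library). For the interaction it changed for Tgfb2 (0.28 at a pseudocount of 0.1), Tgfbr1 (0.0032 with size factors, -0.28 to 0.0274 without 1 library) and Tgfbr2 (-0.34 to 0.0514). Between compartments it changed for Tgfbr1, in WT (-0.19 to 0.10) and in Cdk1 Liv-/- libraries (-0.16 with size factors, -0.0769 to 0.23). For all of these the cause was not tested. Tgfb2, Tgfb3 and Pdgfb rest on few reads in hepatocytes, and a filter at 1 FPKM removes them.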
